A study of Homo sapiens with 14 samples.

Results

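The genes described are 10 of the 26485 in the count table, namely ACTA2, TAGLN, CNN1, MYL9, TPM1, TPM2, ACTC1, ACTG2, CALD1 and JPH2. They were listed by name as smooth muscle contractile genes, with earlier results of these data known. Counts and medians of the 10 beside those of all genes are therefore a description. All 10 passed the filter on low counts, which left 16149 genes to test. Their messenger RNA was measured in WA01 human embryonic stem cells (the line also known as H1) and in neural crest cultures made from that 1 line in 5 days on Matrigel. CHIR99021, which inhibits the kinase GSK3 and thereby activates canonical Wnt signaling, was given from hour 0 to hour 72 at 10 µM (high Wnt) or 3 µM (low Wnt). From hour 0 to hour 120 some cultures also had recombinant human TGF-beta 1 (TGFB), at 5 ng/µL in the unit of the labels, or 10 µM SB431542 (SB4), which blocks the type I receptors of TGF-beta, activin and nodal. The 7 groups of 2 libraries are high Wnt + TGFB, high Wnt + SB4, high Wnt, low Wnt + TGFB, low Wnt + SB4, low Wnt and uninduced cells (hESC). Every induced group had CHIR99021, so no culture received TGFB or SB4 alone.

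Smooth muscle cells contract when myosin heads pull on actin filaments, and phosphorylation of the myosin regulatory light chain switches the pull on. Tropomyosin, calponin, caldesmon and transgelin lie along these filaments and steady or restrain them. Serum response factor drives many of these genes through a sequence called the CArG box, and TGF-beta is a classical inducer of them in mesenchymal and neural crest cells, which give rise to the smooth muscle of the great arteries. Several of the genes are also active outside smooth muscle: ACTC1 is the main actin of the heart, and TPM1, TPM2 and CALD1 have splice forms found in most cells, which counts per gene do not separate.

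Library totals ran from 10879287 to 19106827 counts. Levels are CPM (counts scaled to equal library size) after TMM scaling, fold changes are log2 values with standard errors (SE), and a gene was called where edgeR's quasi-likelihood test gave a p under 0.05 once adjusted (Benjamini-Hochberg) over all genes tested. Whether the 2 libraries of a group stem from different cultures is not labelled, and p-values then reflect a spread that may be technical only. In bulk RNA, fewer cells of a type and less RNA per cell cannot be told apart. The cultures are not labelled as smooth muscle, and MYH11, the smooth muscle myosin heavy chain and the defining gene of mature cells, averaged at most 0.345 CPM in any group. It had 0 counts in both high Wnt + SB4 libraries, which allows up to 0.191 and 0.167 CPM for counting error. The coactivator MYOCD averaged 2.34, 0.465 and 1.38 CPM in high Wnt + TGFB, high Wnt + SB4 and high Wnt, and 11.1 CPM in hESC. Desmin (DES) averaged at most 9.18 CPM in any group (high Wnt), and smoothelin (SMTN) reached 85.3 CPM in high Wnt. LMOD1 averaged 21.0, 1.58 and 8.64 CPM in high Wnt + TGFB, high Wnt + SB4 and high Wnt, and 2.33 CPM in hESC. The 10 genes are named by the list they come from, and no cell type is inferred from them.

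The muscle actins make up the filament itself. ACTA2 encodes the actin of vascular smooth muscle (chromosome 10, 88935074 to 88991390, minus strand, hg38), ACTC1 the cardiac actin (chromosome 15, 34788096 to 34795726, minus strand) and ACTG2 the enteric smooth muscle actin (chromosome 2, 73892966 to 73919653, plus strand). Their promoters are shown because all 3 hold the CArG shape, while the groups in which the genes were high differed. Sequences are from RefSeq promoters (GRCh38.p14), 5′ to 3′ on the gene's strand. Each begins 250 bases before a RefSeq start site and stops before the exon that covers that site in the annotation used for counting. For ACTA2 this is a start inside the annotated gene, which also has a start further upstream whose window holds no CArG match. For ACTC1 a site of 30 bases is added, which lies inside the annotated gene. The other RefSeq windows of ACTC1 hold no CArG match. Capitals mark each stretch of CC, 6 core bases of which at least 5 are A or T, and GG.
ACTA2 (chr10:88952824-88953023, minus strand): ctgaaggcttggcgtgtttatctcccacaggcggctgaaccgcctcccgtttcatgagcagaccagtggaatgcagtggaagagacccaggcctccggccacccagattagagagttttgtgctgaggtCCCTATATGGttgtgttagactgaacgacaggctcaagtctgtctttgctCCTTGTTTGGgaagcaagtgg
ACTC1 (chr15:34795727-34795799, minus strand): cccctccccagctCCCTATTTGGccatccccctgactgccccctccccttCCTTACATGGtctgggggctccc
ACTC1 site (chr15:34795639-34795668, minus strand): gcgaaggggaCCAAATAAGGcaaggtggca
ACTG2 (chr2:73892758-73892965, plus strand): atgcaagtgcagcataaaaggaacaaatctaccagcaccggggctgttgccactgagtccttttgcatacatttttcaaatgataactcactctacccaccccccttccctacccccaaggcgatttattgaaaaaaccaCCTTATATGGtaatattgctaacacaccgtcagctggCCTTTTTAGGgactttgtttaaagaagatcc
Both ACTG2 matches and the added ACTC1 site have 6 core bases that are all A or T, and the other matches shown have a single G or C in the core. A further ACTC1 match with a single G or C, between the stretch shown and the added site, is not shown. In windows of 300 bases (250 before and 50 from the start on), the stricter shape is found in 1.29% of all 35116 promoters and the looser in 8.13%. RefSeq windows matched 8 of the 10 genes, 15 windows in all, and TAGLN and MYL9 had no entry. The looser shape was found in 5 of these windows, 1 each for ACTA2, ACTC1, ACTG2, CALD1 and JPH2, and in none of CNN1, TPM1 or TPM2. CAGAC, the SMAD element, was present on either strand in 11 of the 15 windows, against 45.3% of all promoters. CATTCC, the TEAD element, was present in 4 windows, against 14% of all, and TATAAA in 3, against 11.5%. Matches of different motifs were counted separately and could overlap. These matches are letters in a window, and binding was not measured.

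ACTA2 had 313 and 304 CPM in high Wnt + TGFB, 55.3 and 56.6 CPM in high Wnt + SB4 and 228 and 189.6 CPM in high Wnt. It had 21.0 and 17.1 CPM in low Wnt + TGFB, 40.04 and 41.7 CPM in low Wnt + SB4, 31.5 and 28.1 CPM in low Wnt and 3.11 and 3.99 CPM in hESC. No 2 groups overlapped, and every step of this order was larger than the summed SDs of its neighbours, with all high Wnt groups above all low Wnt groups and hESC lowest by far. The highest group mean was 87.0 times the lowest. ACTA2-AS1, which overlaps ACTA2 exons on the other strand, had 0 to 4 counts per library, and counting used strand per the file headers.

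ACTC1 followed another order. It had 238 and 207 CPM in high Wnt + TGFB, 11.4 and 10.1 CPM in high Wnt + SB4 and 201 and 141 CPM in high Wnt. In the low Wnt groups it had 27.9 and 39.0 CPM with TGFB, 31.9 and 38.6 CPM with SB4 and 15.04 and 22.6 CPM without additive, and in hESC 134 and 162 CPM. High Wnt, with and without TGFB, and hESC formed a high set whose neighbours did not differ beyond their spread, and both high Wnt + SB4 libraries were the lowest of all 14. ACTG2 was a gene of the uninduced cells, with 17.7 and 23.5 CPM in hESC. It had 1.16 and 1.23 CPM in high Wnt + TGFB, 0.318 and 0.334 CPM in high Wnt + SB4, 1.33 and 1.17 CPM in high Wnt and 1.16 and 1.14 CPM in low Wnt. With additives at the lower dose it had 1.85 and 2.87 CPM (TGFB) and 2.19 and 1.26 CPM (SB4). No induced library came near hESC, and the high Wnt + SB4 values rest on 5 and 6 counts.

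Actin genes share most of their coding sequence, and reads that map to several places were not counted per the file headers, so the balance between them rests on the reads that differ. Levels of different genes are compared as TPM, the transcript abundance unit that divides by exonic length. ACTA1, the skeletal actin, is not among the 10 genes and was added to complete the muscle actins. Of the summed TPM of ACTA2, ACTC1, ACTG2 and ACTA1, ACTA2 made up 54.6% ± 1.34 in high Wnt + TGFB, 76.7% ± 1.15 in high Wnt + SB4, 47.3% ± 3.45 in high Wnt, 36.5% ± 8.40 in low Wnt + TGFB, 55.1% ± 0.278 in low Wnt + SB4, 54.1% ± 6.33 in low Wnt and 1.56% ± 0.039 in hESC (SD, n = 2 each). By this measure the muscle actin messages of hESC were ACTA1 (53.1% ± 0.00148), ACTC1 (32.8% ± 0.667) and ACTG2 (12.6% ± 0.626), with hardly any ACTA2. ACTA2 was the largest share in the mean of each induced group, by a margin within the SD in low Wnt + TGFB (ACTC1 31.5% ± 4.74). The shares depend on the exonic lengths used, such as 3693 bases for ACTC1 and 1851 for ACTA2. By CPM, ACTC1 exceeded ACTA1 in hESC (148 against 97.0 CPM) and ACTA2 in low Wnt + TGFB (33.5 against 19.1 CPM). Beside the 2 cytoplasmic actins ACTB and ACTG1, which form the filaments of all cells, the muscle actins were minor: ACTA2 was 4.28% ± 0.0928 of the 6 genes' TPM in high Wnt + TGFB, 2.69% ± 0.00589 in high Wnt and 0.0354% ± 0.00145 in hESC.

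**Figure D1:**
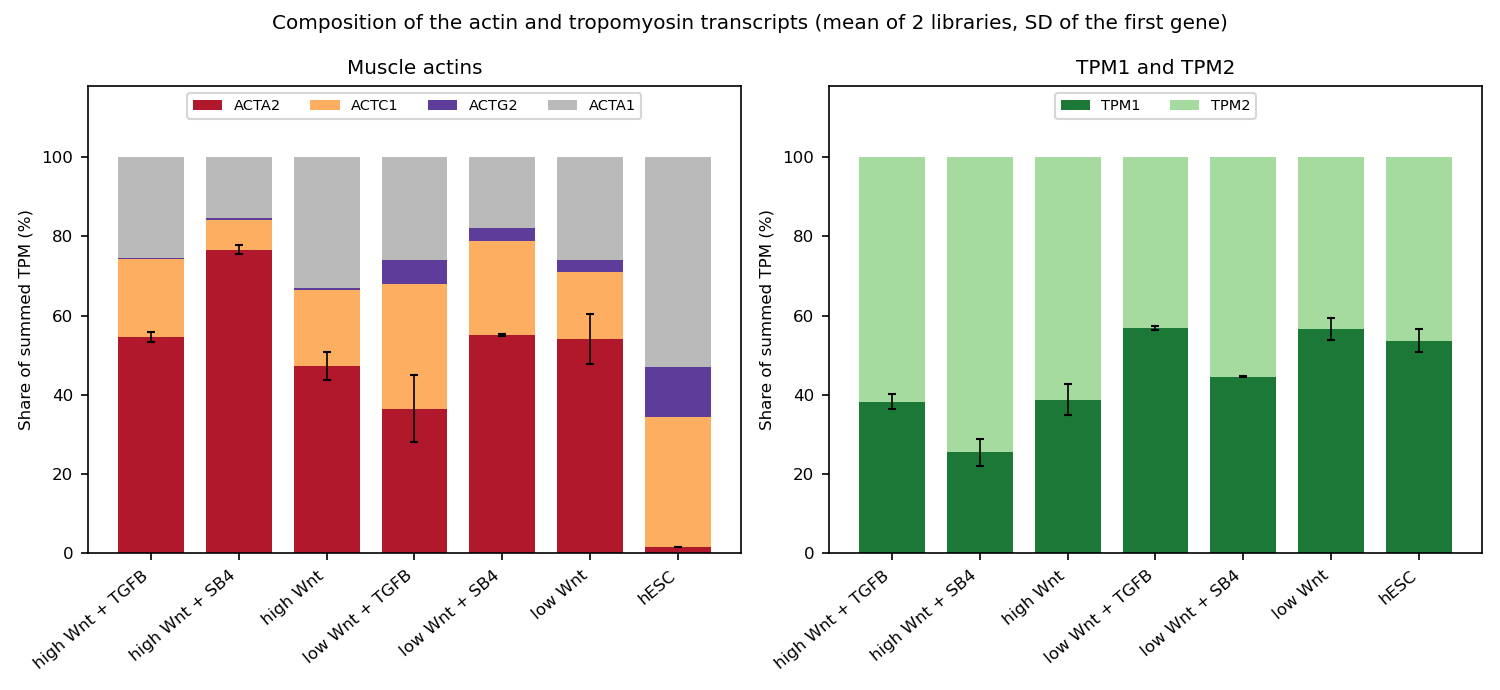
Stacked bars give each gene's share (%) of the summed TPM of the muscle actins ACTA2, ACTC1, ACTG2 and ACTA1 (left) and of TPM1 and TPM2 (right) in the 7 groups, as means of 2 libraries with SD bars for ACTA2 and TPM1. ACTA2 is 76.7% ± 1.15 of muscle actin in high Wnt + SB4 and 1.56% ± 0.039 in hESC, and TPM1 is 25.5% ± 3.46 of the pair in high Wnt + SB4.

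Tropomyosins, which wind along the actin filament and gate the access of myosin, had other orders. TPM1 (chromosome 15, 63042639 to 63071914, plus strand) had 535 and 496 CPM in high Wnt + TGFB, 170.4 and 212 CPM in high Wnt + SB4 and 440.4 and 467 CPM in high Wnt. It had 1005 and 928 CPM in low Wnt + TGFB, 897 and 969.7 CPM in low Wnt + SB4, 1314 and 1257 CPM in low Wnt and 567 and 648 CPM in hESC. All 6 low Wnt libraries lay above the other 8, low Wnt without additive highest. TPM2 (chromosome 9, 35681993 to 35690056, minus strand) varied little: its highest group mean was 2.19 times its lowest, next to 2.16 times for CALD1, the smallest range of the 10. It had 383 and 398 CPM in high Wnt + TGFB, 267 and 258 CPM in high Wnt + SB4 and 369 and 309.5 CPM in high Wnt. At the lower dose it had 353 and 336 CPM with TGFB, 527 and 562 CPM with SB4 and 513 and 418 CPM alone, and hESC had 212 and 286 CPM. The groups form a near-continuous series, in which hESC overlapped high Wnt + SB4. TPM1 made up 38.2% ± 1.90, 25.5% ± 3.46 and 38.7% ± 3.92 of the TPM of the pair in high Wnt + TGFB, high Wnt + SB4 and high Wnt (SD, n = 2 each). In low Wnt + TGFB, low Wnt + SB4, low Wnt and hESC it made up 56.9% ± 0.545, 44.6% ± 0.234, 56.6% ± 2.76 and 53.6% ± 2.91. Like the actin shares, these depend on the exonic lengths, 3349 bases for TPM1 and 1574 for TPM2.

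Of transgelin, calponin and caldesmon, transgelin (TAGLN, chromosome 11, 117199324 to 117204792, plus strand), an early marker of smooth muscle differentiation that crosslinks actin, had the most TPM in each group mean. It had 997 and 1080.4 CPM in high Wnt + TGFB, 85.3 and 115 CPM in high Wnt + SB4 and 875 and 777 CPM in high Wnt. It had 208 and 241 CPM in low Wnt + TGFB, 255 and 288 CPM in low Wnt + SB4, 148 and 178 CPM in low Wnt and 338 and 504 CPM in hESC. The groups did not overlap, and the order ran from high Wnt + TGFB through high Wnt, hESC and the low Wnt groups down to high Wnt + SB4. Calponin (CNN1, chromosome 19, 11538717 to 11550323, plus strand), which inhibits the myosin ATPase, had 77.7 and 81.1 CPM in high Wnt + TGFB, 27.6 and 25.6 CPM in high Wnt + SB4 and 112 and 101.4 CPM in high Wnt. It had 28.2 and 32.0 CPM in low Wnt + TGFB, 28.1 and 28.4 CPM in low Wnt + SB4, 21.7 and 23.9 CPM in low Wnt and 40.8 and 55.4 CPM in hESC. High Wnt without additive was the highest, and low Wnt + TGFB, low Wnt + SB4 and high Wnt + SB4 did not differ beyond their spread. Caldesmon (CALD1, chromosome 7, 134779413 to 134970729, plus strand), which ties actin to myosin, had 387 and 340.2 CPM in high Wnt + TGFB, 196 and 177 CPM in high Wnt + SB4 and 426 and 379 CPM in high Wnt. At the lower dose it had 392 and 377 CPM with TGFB, 250.5 and 258 CPM with SB4 and 258 and 254 CPM alone, and hESC had 386 and 375 CPM. High Wnt, low Wnt + TGFB, hESC and high Wnt + TGFB formed an upper set without steps beyond the spread, low Wnt and low Wnt + SB4 overlapped below it, and high Wnt + SB4 was lowest.

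The myosin regulatory light chain MYL9 (chromosome 20, 36541484 to 36549823, plus strand), whose phosphorylation starts contraction, had 282 and 288 CPM in high Wnt + TGFB, 68.7 and 66.9 CPM in high Wnt + SB4 and 232 and 202 CPM in high Wnt. It had 143 and 156 CPM in low Wnt + TGFB, 139 and 135 CPM in low Wnt + SB4, 89.2 and 98.5 CPM in low Wnt and 248 and 331 CPM in hESC. Uninduced cells and high Wnt + TGFB were highest and overlapped, and high Wnt + SB4 was again lowest. Junctophilin 2 (JPH2, chromosome 20, 44111697 to 44187578, minus strand), which holds calcium stores close to the plasma membrane in muscle, was a minor transcript. It had 23.8 and 18.9 CPM in high Wnt + TGFB, 0.572 and 1.00 CPM in high Wnt + SB4 and 16.9 and 14.8 CPM in high Wnt. It had 4.05 and 5.56 CPM in low Wnt + TGFB, 15.4 and 13.9 CPM in low Wnt + SB4, 13.6 and 14.3 CPM in low Wnt and 3.26 and 3.31 CPM in hESC. The high Wnt + SB4 libraries, with 9 and 18 counts, lay below every other library, and high Wnt, low Wnt + SB4 and low Wnt did not differ beyond their spread. High Wnt + SB4 was the lowest group for 7 of the 10 genes, the exceptions being ACTA2 and TPM2, lowest in hESC, and CNN1, lowest in low Wnt.

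**Figure D2:**
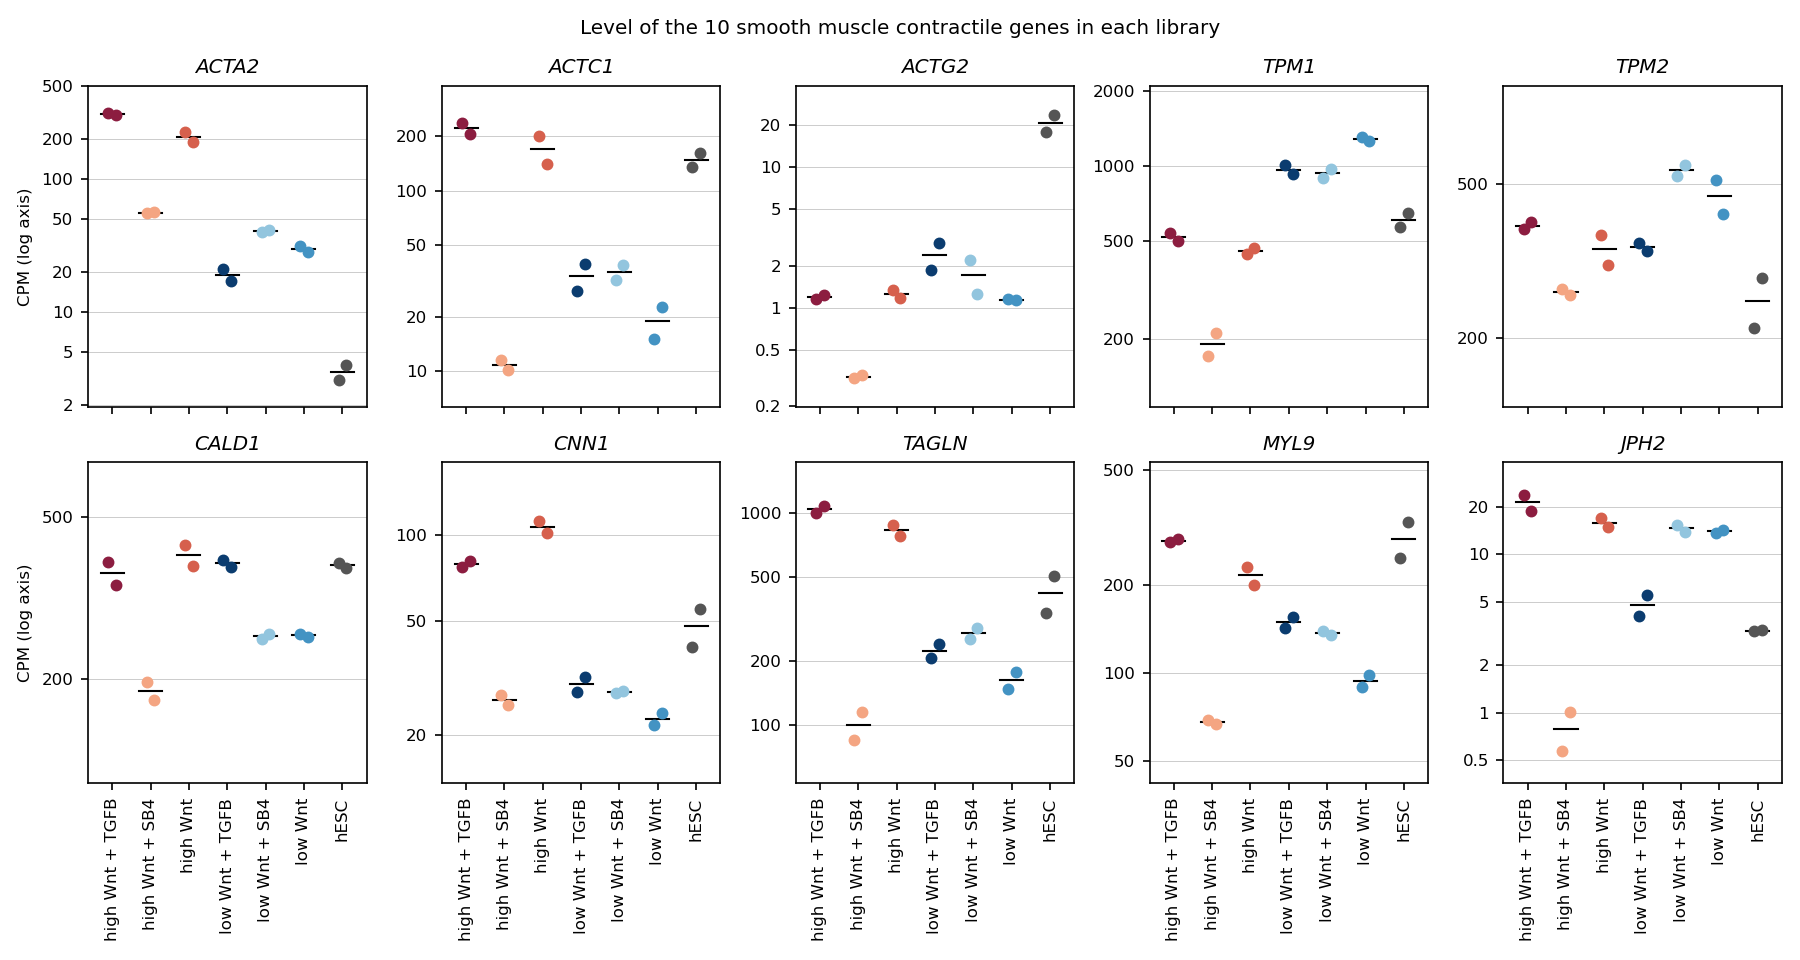
Each panel shows 1 gene, with CPM on a log axis, the 7 groups along the x axis, a point for each of the 2 libraries and a bar at their mean. ACTA2 is at 313 and 304 CPM in high Wnt + TGFB and at 3.11 and 3.99 CPM in hESC, ACTG2 is high in hESC alone, and TAGLN, MYL9, TPM1, ACTC1, ACTG2, CALD1 and JPH2 are lowest in high Wnt + SB4.

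Per unit of length, TAGLN (1809 ± 69.5 TPM), TPM2 (674 ± 5.77 TPM), MYL9 (646 ± 2.45 TPM), ACTA2 (452 ± 17.9 TPM) and TPM1 (418 ± 30.1 TPM) led in high Wnt + TGFB (SD, n = 2). In hESC the leaders were TAGLN (589.9 ± 127 TPM), MYL9 (529.6 ± 72.7 TPM), TPM1 (399 ± 11.2 TPM) and TPM2 (346 ± 50.1 TPM), while ACTA2 stood at 4.20 ± 0.461 TPM. ACTG2 and JPH2 were below 10 TPM in every induced group mean. Summed over the 10 genes, the level was 4478 and 4457 TPM in high Wnt + TGFB, 1098 and 1197 TPM in high Wnt + SB4 and 3638 and 3405 TPM in high Wnt. The sum was 2462 and 2489 TPM in low Wnt + TGFB, 2595 and 2768 TPM in low Wnt + SB4, 2539 and 2527 TPM in low Wnt and 2010.3 and 2387 TPM in hESC. High Wnt with and without TGFB lay above all other libraries, and high Wnt + SB4 below all of them.

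Induction was examined by setting each dose without additive against hESC. Against hESC, low Wnt had changes in all 10 genes. ACTA2 (3.08 ± 0.17), JPH2 (2.09 ± 0.22), TPM1 (1.08 ± 0.11) and TPM2 (0.90 ± 0.13) rose. The other 6 genes fell, by log2 values between -4.16 for ACTG2 and -0.57 for CALD1, with -2.97 for ACTC1, -1.63 for MYL9, -1.37 for TAGLN and -1.07 for CNN1. Of all genes tested, 35.8% were called higher and 35.6% lower, and the median of the 10 was -0.82 against 0.004 for all genes. In high Wnt, ACTA2 (5.88 ± 0.16), JPH2 (2.27 ± 0.22), CNN1 (1.15 ± 0.13), TAGLN (0.97 ± 0.17) and TPM2 (0.45 ± 0.13) rose, and ACTG2 (-4.04 ± 0.31), MYL9 (-0.42 ± 0.12) and TPM1 (-0.42 ± 0.11) fell. ACTC1 (0.21 ± 0.19, adjusted p = 0.327) and CALD1 (0.081 ± 0.095, adjusted p = 0.458) were not called, and their libraries overlapped. Here 36.3% of all genes were called higher and 36.1% lower, with a median of 0.33 for the 10 and 0.0093 for all. These comparisons share the hESC libraries. The call of MYL9 was lost without high Wnt replicate 2 (-0.32) or hESC replicate 2 (-0.18). That of TPM2 was lost without high Wnt replicate 1 (0.32) or hESC replicate 1 (0.25).

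The dose comparison asks what the higher amount of CHIR99021 did without additive. High Wnt had more ACTC1 (3.18 ± 0.21), ACTA2 (2.81 ± 0.12), TAGLN (2.34 ± 0.17), CNN1 (2.23 ± 0.14), MYL9 (1.21 ± 0.12) and CALD1 (0.65 ± 0.10) than low Wnt. It had less TPM1 (-1.50 ± 0.11) and TPM2 (-0.46 ± 0.13), and ACTG2 (0.12 ± 0.38, adjusted p = 0.833) and JPH2 (0.18 ± 0.19, adjusted p = 0.472) were not called. The 6 higher and 2 lower calls stand against 19.4% higher and 19.1% lower among all genes, and the median was 0.93 against -0.0069. The call of TPM2 was lost without low Wnt replicate 1 (-0.30) or high Wnt replicate 2 (-0.34). Cardiac and vascular actin, transgelin and calponin thus stood higher at the higher dose, and TPM1 lower.

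Receptor inhibition at the higher dose went with lower levels of nearly the whole list. In high Wnt + SB4, 9 of the 10 genes were lower than in high Wnt, where 11.6% of all genes were called lower and 9.94% higher. JPH2 (-4.30 ± 0.26, adjusted p = 9.82e-09) and ACTC1 (-3.99 ± 0.22, adjusted p = 6.38e-09) fell most, followed by TAGLN (-3.04 ± 0.18, adjusted p = 8.31e-09). CNN1 (-2.01 ± 0.13), ACTA2 (-1.90 ± 0.12), ACTG2 (-1.90 ± 0.46), MYL9 (-1.68 ± 0.12), TPM1 (-1.25 ± 0.11) and CALD1 (-1.11 ± 0.10) also fell. TPM2 had 267 and 258 CPM in high Wnt + SB4 and 369 and 309.5 CPM in high Wnt, without overlap, and missed the threshold (-0.37 ± 0.13, adjusted p = 0.0542), though it passed with DESeq2 (-0.38) and without high Wnt replicate 2 (-0.49). The median of the 10 was -1.90, against 0.003 over all genes. After the fall ACTA2 was still 56.0 ± 0.896 CPM in high Wnt + SB4, against 3.55 ± 0.621 CPM in hESC (SD, n = 2 each), whereas ACTC1 was 10.8 ± 0.956 CPM against 148 ± 19.3 CPM.

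With added TGF-beta 1 at the higher dose, ACTA2 was the 1 gene called, higher in high Wnt + TGFB than in high Wnt (0.56 ± 0.11, adjusted p = 0.00424), where 3.75% of all genes were called higher and 3.49% lower. The ACTA2 call was lost without high Wnt replicate 2 (0.44), while DESeq2 called 3 of the 10 and the fit without the filter on low counts 5. The other 9 genes were not called. Their values ran from -0.43 ± 0.13 for CNN1 (adjusted p = 0.0508) to 0.43 ± 0.18 for JPH2 (adjusted p = 0.193), with MYL9 at 0.40 ± 0.12, adjusted p = 0.0551. The median of the 10 was 0.27, against 0 over all genes. Set against SB4 directly, TGFB at this dose gave 10 higher calls of 10, with 13% of all genes called higher and 11.2% lower. The sizes ran from 0.57 ± 0.13 for TPM2 to 4.72 ± 0.26 for JPH2, with ACTC1 at 4.37 ± 0.22, TAGLN at 3.37 ± 0.18 and ACTA2 at 2.46 ± 0.12. The median was 1.96, against -0.0043 over all genes. The ACTG2 call in this comparison was lost without high Wnt + TGFB replicate 2 (1.81).

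With the lower dose, SB4 went with small changes, mostly upward. ACTC1 (0.91 ± 0.21, adjusted p = 0.00883), TAGLN (0.74 ± 0.17, adjusted p = 0.00814), MYL9 (0.55 ± 0.12, adjusted p = 0.00687) and ACTA2 (0.46 ± 0.12, adjusted p = 0.0217) were higher in low Wnt + SB4 than in low Wnt, and TPM1 (-0.46 ± 0.11, adjusted p = 0.00934) was lower. The other 5 genes were not called. Among all genes 4.84% were called higher and 6.39% lower, with a median of 0.38 for the 10 and 0 for all. None of the 10 was called without low Wnt replicate 1, where ACTC1 had 0.64, TAGLN 0.61, MYL9 0.48, ACTA2 0.54 and TPM1 -0.43. Without low Wnt + SB4 replicate 1 the 2 called were ACTC1 and TAGLN, and ACTA2 (0.49), MYL9 (0.53) and TPM1 (-0.41) were not. Without low Wnt + SB4 replicate 2 the 2 called were MYL9 and TPM1, and ACTC1 (0.76), TAGLN (0.65) and ACTA2 (0.43) were not. Without low Wnt replicate 2, ACTA2 alone lost its call (0.38).

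TGF-beta 1 at the lower dose split the list. Against low Wnt, low Wnt + TGFB had more ACTG2 (1.05 ± 0.34, adjusted p = 0.0294), ACTC1 (0.83 ± 0.21, adjusted p = 0.00732), MYL9 (0.67 ± 0.12, adjusted p = 5.62e-04), CALD1 (0.59 ± 0.10, adjusted p = 2.00e-04) and CNN1 (0.40 ± 0.14, adjusted p = 0.0392). It had less JPH2 (-1.53 ± 0.20, adjusted p = 2.53e-05), ACTA2 (-0.65 ± 0.13, adjusted p = 0.00127), TPM2 (-0.43 ± 0.13, adjusted p = 0.0208) and TPM1 (-0.41 ± 0.11, adjusted p = 0.00922), and TAGLN was not called (0.46 ± 0.17, adjusted p = 0.0516), though it passed with DESeq2 (0.48). Of all genes, 13.7% were called higher and 12.2% lower, with a median of 0.43 for the 10 and -0.0055 for all. JPH2, ACTA2, MYL9 and CALD1 kept their calls whichever library of the 4 was left out. The other 5 lost theirs without low Wnt replicate 1 (ACTG2 1.06, ACTC1 0.57, CNN1 0.34, TPM2 -0.28 and TPM1 -0.38). They also lost them without low Wnt + TGFB replicate 2 (ACTG2 0.69, ACTC1 0.57, CNN1 0.31, TPM2 -0.40 and TPM1 -0.35). Leaving out low Wnt replicate 2 ended the calls of CNN1 (0.47) and ACTG2 (1.04), and leaving out low Wnt + TGFB replicate 1 that of TPM2 (-0.47). Every gene called here, higher or lower, differed from low Wnt in the direction of its hESC mean. Side by side in low Wnt + TGFB, low Wnt and hESC, JPH2 averaged 4.81, 13.96 and 3.28 CPM and CALD1 384, 256 and 380.4 CPM. The means of the other genes called stayed between those of low Wnt and hESC. In the same order, ACTC1 (33.5, 18.8 and 148 CPM), ACTG2 (2.36, 1.15 and 20.6 CPM) and ACTA2 (19.1, 29.8 and 3.55 CPM) stopped well short of hESC. The comparisons of low Wnt with either neighbour share its libraries. All 8 pluripotency markers were also called higher in low Wnt + TGFB than in low Wnt, their summed level being 3210.2 to 3625 CPM against 1623 to 1857 CPM, and NANOG averaged 17.1 CPM against 1.20 CPM. Whether stem-like cells have a part in the gene levels of this group was not tested. Set against low Wnt + SB4, low Wnt + TGFB had more CALD1 (0.60 ± 0.10) and less JPH2 (-1.60 ± 0.20), ACTA2 (-1.10 ± 0.13) and TPM2 (-0.66 ± 0.13), and 6 genes were not called. Here 18.4% of all genes were called higher and 17.1% lower, with a median of -0.01 for the 10 and -0.014 for all.

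**Figure D3:**
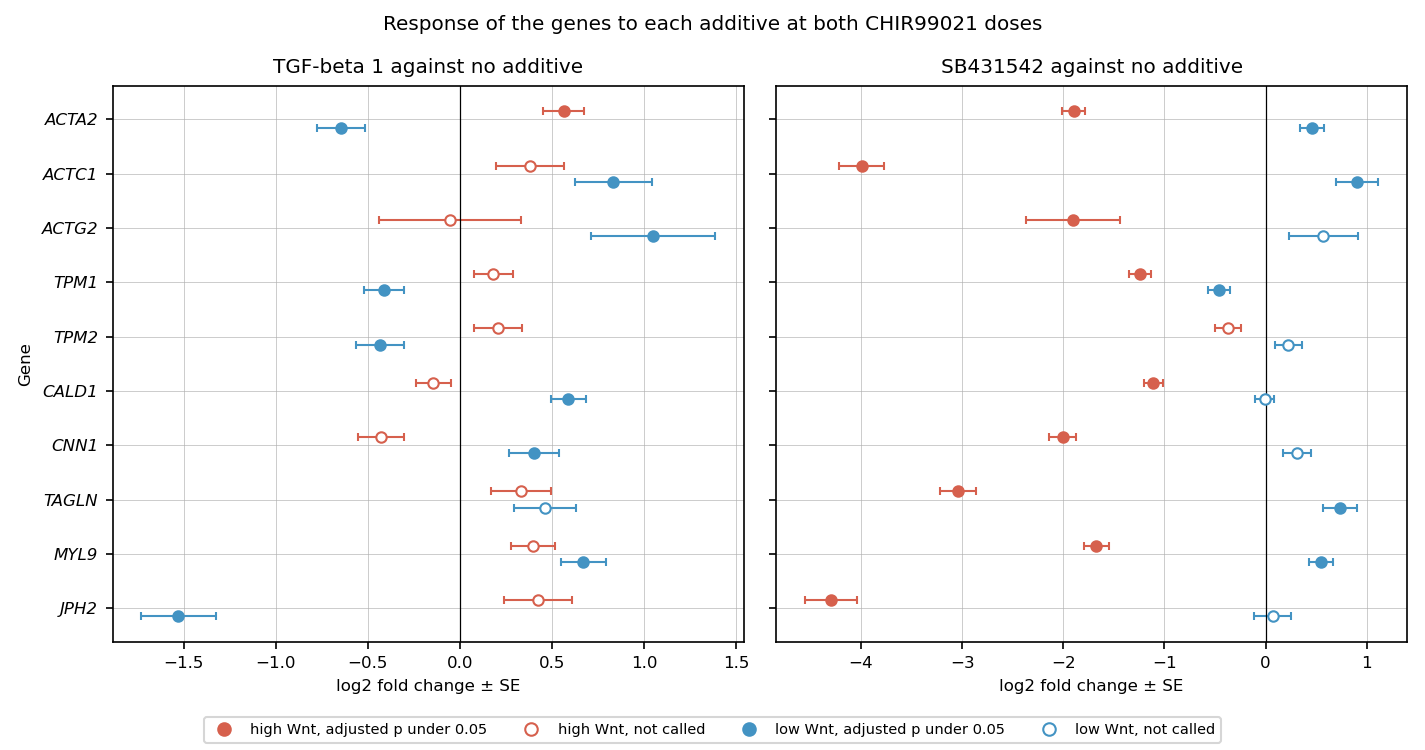
Points give the log2 fold change of each gene with TGF-beta 1 (left) or SB431542 (right) against the same dose without additive, with SE bars, in red for high Wnt and blue for low Wnt, filled where the adjusted p was under 0.05. With SB431542 the high Wnt points reach -4.30 (JPH2) while the low Wnt points lie between -0.46 (TPM1) and 0.91 (ACTC1).

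The dose dependence of each additive was tested as a difference of effects, high Wnt minus low Wnt. For SB4 the difference was called negative for 9 of the 10 genes, where 3.36% of all genes were called lower and 2.71% higher. It was largest for ACTC1 (-4.90 ± 0.30, adjusted p = 7.15e-08), JPH2 (-4.37 ± 0.32, adjusted p = 3.36e-07) and TAGLN (-3.78 ± 0.24, adjusted p = 8.17e-08). ACTG2 (-2.48 ± 0.58), ACTA2 (-2.36 ± 0.17), CNN1 (-2.32 ± 0.19), MYL9 (-2.22 ± 0.17), CALD1 (-1.10 ± 0.13) and TPM1 (-0.78 ± 0.15) followed, and TPM2 was not called (-0.60 ± 0.18, adjusted p = 0.0696). The median was -2.34 against 0.014, and leaving out low Wnt replicate 1 brought TPM2 past the threshold (-0.75). The ACTG2 call was lost without low Wnt + SB4 replicate 1 (-2.04), high Wnt replicate 1 (-2.39) or high Wnt + SB4 replicate 1 or 2 (-2.44 and -2.51). For TGFB the difference was positive for JPH2 (1.95 ± 0.27, adjusted p = 1.28e-04), ACTA2 (1.21 ± 0.17, adjusted p = 1.38e-04), TPM2 (0.64 ± 0.18, adjusted p = 0.0313) and TPM1 (0.59 ± 0.15, adjusted p = 0.0161), and negative for CNN1 (-0.83 ± 0.19, adjusted p = 0.00673) and CALD1 (-0.73 ± 0.13, adjusted p = 0.00145). TAGLN, MYL9, ACTC1 and ACTG2 were not called. Here 5.73% of all genes were called higher and 6.06% lower, with a median of -0.20 for the 10 and 0.0085 for all. The TPM1 call was lost without low Wnt replicate 1 (0.56), low Wnt + TGFB replicate 2 (0.54), high Wnt replicate 1 (0.54) or high Wnt + TGFB replicate 1 (0.54). The TPM2 call was lost without low Wnt replicate 1 (0.49), high Wnt replicate 2 (0.52) or any of the 4 libraries with TGFB (0.61 to 0.68). JPH2, ACTA2, CNN1 and CALD1 kept their calls in each of these fits.

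The dose comparison was repeated within each additive. Under SB4 the higher dose had less JPH2 (-4.18 ± 0.26), ACTG2 (-2.36 ± 0.43), TPM1 (-2.29 ± 0.11), ACTC1 (-1.72 ± 0.22), TAGLN (-1.44 ± 0.17), TPM2 (-1.05 ± 0.13), MYL9 (-1.02 ± 0.12) and CALD1 (-0.45 ± 0.10) than the lower dose. ACTA2 was the 1 gene higher (0.45 ± 0.12), a call lost without low Wnt + SB4 replicate 1 (0.42), and CNN1 was not called (-0.089 ± 0.14, adjusted p = 0.677). Of all genes 15.3% were called higher and 14.8% lower, with a median of -1.24 for the 10 and 0.0039 for all. Under TGFB the higher dose had more ACTA2 (4.02 ± 0.13), ACTC1 (2.73 ± 0.20), TAGLN (2.21 ± 0.17), JPH2 (2.14 ± 0.20), CNN1 (1.40 ± 0.13) and MYL9 (0.93 ± 0.12). It had less TPM1 (-0.91 ± 0.11) and ACTG2 (-0.98 ± 0.34), while TPM2 and CALD1 were not called. Of all genes 22.8% were called higher and 23.5% lower, with a median of 1.16 for the 10 and -0.00092 for all. The ACTG2 call was lost without low Wnt + TGFB replicate 2 (-0.62) or high Wnt + TGFB replicate 1 or 2 (-0.95 and -1.03).

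The genes did not form 1 block across the 14 libraries. As a description, Pearson's r of log2 CPM was 0.97 between MYL9 and ACTC1, 0.96 between TAGLN and ACTC1 and 0.92 between TAGLN and CNN1, so that transgelin, calponin, the light chain and cardiac actin moved together. Over all 14 libraries ACTA2 stood outside this set, with r of 0.52 to CNN1, 0.45 to TAGLN and 0.045 to MYL9. Its r to ACTG2 was -0.72. These values include hESC, where ACTA2 had its lowest mean (3.55 CPM) and TAGLN averaged 421, MYL9 290 and ACTG2 20.6 CPM. Correlations over the induced libraries alone were not computed. TPM1 and TPM2 were closest to JPH2 and to each other (0.64). The 14 points share groups and 1 cell line, so they are not independent. Among 11565 other genes with at least 10 CPM in a group mean, the 3 most like ACTA2 were SLC35D1 (0.98), FAM8A1 (0.98) and MRC2 (0.98). Those most like TAGLN were CSRP1 (0.93), RHOC (0.92) and ACTN4 (0.91), those most like CNN1 JDP2 (0.96), CSRP1 (0.96) and ILK (0.94) and those most like ACTC1 RHOC (0.96), ACTA1 (0.95) and ACTN4 (0.95).

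**Figure D4:**
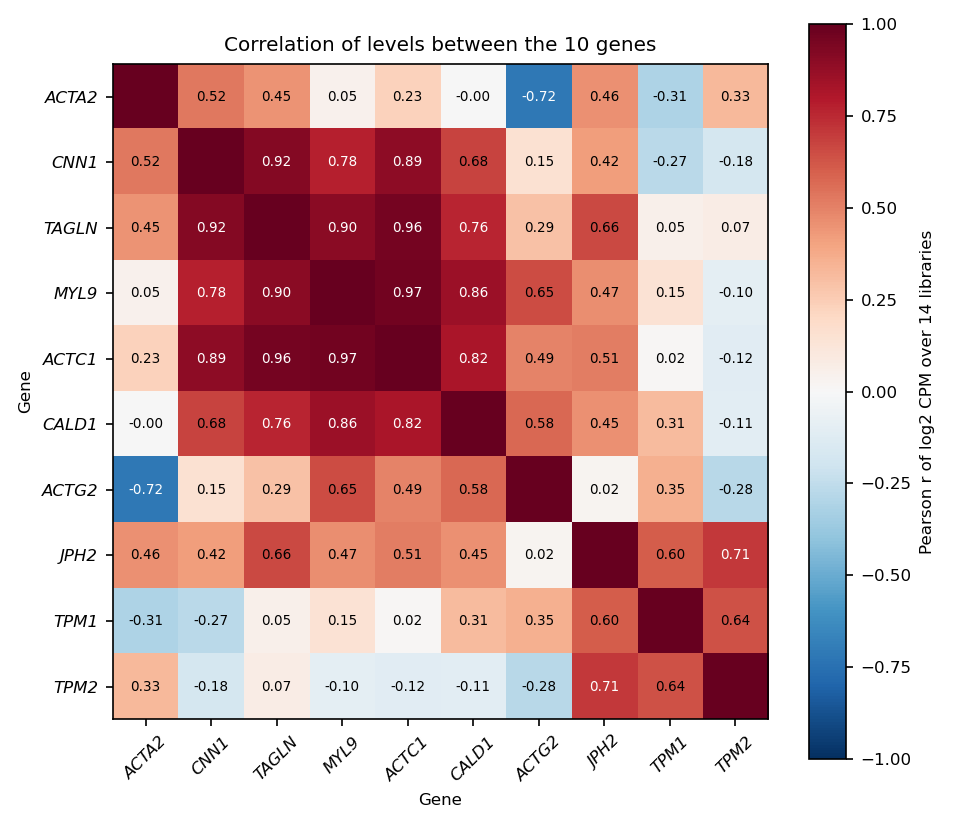
The grid gives Pearson's r of log2 CPM between the 10 genes over 14 libraries, red for positive and blue for negative values. TAGLN, CNN1, MYL9, ACTC1 and CALD1 form a red block with r of 0.68 to 0.97, while ACTA2 and ACTG2 have r of -0.72.

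Related genes were examined in high Wnt + SB4 against high Wnt, where 9 of the 10 fell. There 11.6% of all genes were called lower and 9.94% higher. Of 12 further smooth muscle genes 11 were tested, with 5 lower and 1 higher. The skeletal actin ACTA1 had 9.01 ± 0.29 CPM in high Wnt + SB4 and 119.7 ± 33.1 CPM in high Wnt (SD, n = 2 each, -3.73 ± 0.19), and CSRP1, a LIM protein of the actin cytoskeleton, 11.6 ± 1.36 and 95.4 ± 3.95 CPM (-3.04 ± 0.17). The actin nucleator LMOD1 (-2.43 ± 0.25) and SMTN (-0.97 ± 0.13) fell as well. The 1 gene that rose was MYLK, the kinase of the light chain, which was chosen after its values were seen (0.79 ± 0.14). Of 16 widely expressed relatives of the 10 genes, 6 fell and 2 rose. They include the nonmuscle myosin MYH9 (-1.13 ± 0.088), TAGLN2 (-1.44 ± 0.16) and TPM4 (-0.44 ± 0.083), which fell, and JPH1 (0.85 ± 0.17), which rose. The median was -0.28 for these relatives, -0.97 for the further smooth muscle genes and -1.90 for the 10. Focal adhesion and linker genes, which anchor actin to the matrix, had 10 of 15 lower and 0 higher, with vinculin (VCL, -1.05 ± 0.088), ACTN4 (-1.02 ± 0.10), ITGA5 (-0.68 ± 0.10) and LIMA1 (-0.74 ± 0.12) leading. Of 19 tested regulators of such genes 6 fell and 1 rose. They include SMAD3 (-1.23 ± 0.11), a mediator of TGF-beta signaling, and the TEAD factors TEAD3 (-0.79 ± 0.094) and TEAD1 (-0.72 ± 0.12), which fell, and TEAD2 (0.64 ± 0.10), which rose. SRF, the CArG-binding factor, was named outside the rule and averaged 84.0 ± 15.1 CPM in high Wnt + SB4 and 101.4 ± 2.43 CPM in high Wnt (-0.27 ± 0.18, adjusted p = 0.303).

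Other markers moved in the same comparison. TGF-beta response genes had 9 of 12 lower and 0 higher, with the nodal inhibitor LEFTY2 at 1.18 ± 0.487 CPM in high Wnt + SB4 and 159 ± 35.6 CPM in high Wnt. Fibroblast and mesenchyme markers had 5 of 8 tested lower and 0 higher, and their summed level was 1022 to 1098 CPM against 1980.2 to 1984 CPM. COL1A1 (-2.63 ± 0.10) and COL1A2 (-1.01 ± 0.093) fell most clearly, and FBLN1 averaged 459.5 CPM against 585 CPM. DCN and LUM were at or near 0 in both groups. Pericyte and vascular wall markers had 3 of 8 lower and 0 higher, with sums of 122 to 127 CPM against 292 to 317 CPM. PDGFRB averaged 55.1 CPM against 120.2 CPM. Cardiac markers had 6 of 12 tested lower and 0 higher, with sums of 13.3 to 14.5 CPM against 30.2 to 37.9 CPM. NPPA averaged 0.493 CPM against 4.13 CPM, MYL4 0.553 CPM against 4.31 CPM, NPPB 2.42 CPM against 8.58 CPM and TNNC1 2.66 CPM against 5.03 CPM, and all 4 fell. Several other heart genes were at or near 0 in both groups. MYL2, HAND2 and TBX5 had 0 counts. MYH6 averaged 0 and 0.0344 CPM, NKX2-5 0 and 0.0415 CPM, MYH7 0.143 and 0.387 CPM and TNNT2 0.255 and 0.448 CPM. MYL7 averaged 0.0596 CPM against 1.25 CPM and TNNI3 2.70 CPM against 4.76 CPM. TNNI1 had 1.70 and 1.85 CPM and MYL3 1.12 and 1.01 CPM. Skeletal muscle markers had 1 lower and 1 higher of 5 tested, with sums of 8.26 to 9.30 CPM against 8.64 to 11.1 CPM and MYOD1 at 0 counts in both groups. Endothelial markers had 2 of 7 tested lower and 0 higher, with sums of 33.4 to 34.2 CPM against 33.2 to 34.4 CPM, and the 2 that fell were TIE1 (2.17 CPM against 5.01 CPM) and KDR (0.771 CPM against 2.28 CPM). TEK, with the most CPM of that list, averaged 21.1 CPM against 18.5 CPM and was not called, and PECAM1 was near 0 (0.358 CPM against 0.0688 CPM). Neural crest markers had 2 higher and 2 lower of 9, with sums of 332 to 347 CPM against 289 to 316 CPM, and SOX10 averaged 0.906 and 1.55 CPM. Pluripotency markers had 1 higher and 1 lower of 8, with sums of 897 to 1009.6 CPM against 899 to 1025 CPM. The part of these other markers in the levels of the 10 genes was not tested.

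The same lists were read in the other comparisons between induced groups. Of all genes, 19.4% were called higher and 19.1% lower in high Wnt against low Wnt. In high Wnt against low Wnt, the further smooth muscle genes had 7 higher and 1 lower of 11, led by CSRP1 (3.46 ± 0.18), ACTA1 (3.36 ± 0.18) and SMTN (1.42 ± 0.13), and the 1 lower was MYLK (-1.58 ± 0.13). Focal adhesion and linker genes had 10 higher and 3 lower of 15, and TGF-beta response genes 8 higher and 1 lower of 12. All 8 pluripotency markers were lower at the higher dose, with sums of 899 to 1025 CPM in high Wnt and 1623 to 1857 CPM in low Wnt. Cardiac markers had 8 higher and 3 lower of 12, with sums of 30.2 to 37.9 CPM against 28.3 to 34.2 CPM, while TNNT2 averaged 0.448 CPM against 15.1 CPM. Fibroblast sums were 1980.2 to 1984 CPM against 1152 to 1233 CPM (4 higher and 2 lower of 8), and pericyte sums 292 to 317 CPM against 343 to 379 CPM (3 higher and 4 lower of 8).

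In high Wnt + TGFB against high Wnt, 3.75% of all genes were called higher and 3.49% lower. The further smooth muscle genes had 1 call up, LMOD1 (1.28 ± 0.20), and 1 down, the intermediate filament gene DES (-1.03 ± 0.26). TGF-beta response genes had 3 higher and 2 lower of 12, with LEFTY2 at 2.75 ± 0.16. Pericyte markers had 4 higher and 0 lower of 8, with sums of 379 to 405 CPM against 292 to 317 CPM, and fibroblast markers 3 higher and 0 lower of 8, with sums of 2978 to 3083 CPM against 1980.2 to 1984 CPM. In low Wnt + TGFB against low Wnt, 13.7% of all genes were called higher and 12.2% lower. Regulators had 5 higher and 3 lower of 19, with GATA6, a factor of mesoderm, endoderm and vascular smooth muscle, at 4.68 ± 0.58. GATA6 averaged 10.2 ± 5.46 CPM in low Wnt + TGFB and 0.392 ± 0.0478 CPM, from 13 counts, in low Wnt (SD). SMAD3 went the other way, with means of 79.6 and 143 CPM. The further smooth muscle genes had 1 higher and 0 lower of 11 there, and cardiac markers 5 higher and 0 lower of 12, with sums of 52.0 to 52.5 CPM against 28.3 to 34.2 CPM. In low Wnt + SB4 against low Wnt, 4.84% of all genes were called higher and 6.39% lower. TGF-beta response genes had 4 lower and 1 higher of 12. Pluripotency markers had 7 lower and 0 higher of 8, with sums of 1198 to 1333 CPM against 1623 to 1857 CPM. Their part in the levels of the contractile genes was not tested in these comparisons either.

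Calls in other lists of these comparisons stand beside the shares of all genes given above. In low Wnt + TGFB against low Wnt, fibroblast markers had 6 higher and 2 lower of 8 tested while their sum was 811 to 867 CPM against 1152 to 1233 CPM. Neural crest markers had 5 higher and 0 lower of 9 and pericyte markers 2 higher and 4 lower of 8, endothelial markers 2 higher and 0 lower of 7, linker genes 7 higher and 3 lower of 15 and TGF-beta response genes 6 higher and 1 lower of 12. In low Wnt + SB4 against low Wnt, endothelial markers had 0 higher and 4 lower of 7 and fibroblast markers 1 higher and 4 lower of 8, with fibroblast sums of 721 to 723 CPM against 1152 to 1233 CPM. Pericyte markers had 2 higher and 2 lower of 8 there, neural crest markers 2 higher and 2 lower of 9 and the further smooth muscle genes 1 higher and 1 lower of 11. In high Wnt + TGFB against high Wnt, pluripotency markers had 0 higher and 2 lower of 8, neural crest markers 2 higher and 2 lower of 9 and linker genes 1 higher and 0 lower of 15, and in high Wnt against low Wnt neural crest markers had 4 higher and 3 lower of 9 and endothelial markers 2 higher and 3 lower of 7.

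In high Wnt + TGFB against high Wnt + SB4, the further smooth muscle genes had 7 higher and 1 lower of 11, linker genes 10 higher and 0 lower of 15 and TGF-beta response genes 8 higher and 0 lower of 12. Pericyte markers had 7 higher and 0 lower of 8, fibroblast markers 4 higher and 0 lower of 8, cardiac markers 6 higher and 0 lower of 12, endothelial markers 1 higher and 2 lower of 7, neural crest markers 3 higher and 2 lower of 9 and pluripotency markers 1 higher and 2 lower of 8. In low Wnt + TGFB against low Wnt + SB4, the further smooth muscle genes had 3 higher and 3 lower of 11, linker genes 4 higher and 4 lower of 15 and TGF-beta response genes 8 higher and 2 lower of 12. Pericyte markers had 2 higher and 5 lower of 8, fibroblast markers 6 higher and 1 lower of 8, cardiac markers 6 higher and 2 lower of 12, endothelial markers 5 higher and 0 lower of 7, neural crest markers 4 higher and 1 lower of 9 and pluripotency markers 8 higher and 0 lower of 8. At the higher dose the further smooth muscle genes were thus mostly higher with TGFB than with SB4, where 13% of all genes were called higher and 11.2% lower. At the lower dose 3 were higher, 3 lower and 5 not called, where 18.4% of all genes were called higher and 17.1% lower.

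In high Wnt + SB4 against low Wnt + SB4, 15.3% of all genes were called higher and 14.8% lower. The further smooth muscle genes had 2 higher and 2 lower of 11, linker genes 1 higher and 5 lower of 15 and TGF-beta response genes 5 higher and 3 lower of 12. Pericyte markers had 1 higher and 6 lower of 8, fibroblast markers 3 higher and 2 lower of 8, cardiac markers 2 higher and 3 lower of 12, endothelial markers 1 higher and 1 lower of 7, neural crest markers 3 higher and 3 lower of 9 and pluripotency markers 3 higher and 2 lower of 8. In high Wnt + TGFB against low Wnt + TGFB, 22.8% of all genes were called higher and 23.5% lower. The further smooth muscle genes had 7 higher and 2 lower of 11, linker genes 8 higher and 2 lower of 15 and TGF-beta response genes 5 higher and 2 lower of 12. Pericyte markers had 5 higher and 2 lower of 8, fibroblast markers 5 higher and 3 lower of 8, cardiac markers 5 higher and 4 lower of 12, endothelial markers 1 higher and 4 lower of 7, neural crest markers 4 higher and 4 lower of 9 and pluripotency markers 0 higher and 8 lower of 8.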

How the data were processed

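The authors deposited raw counts per gene for 14 libraries of polyadenylated RNA (NEBNext Ultra II directional kit, per the labels). Per the submitters' processing notes the tools were featureCounts 2.0.0, SAMtools 1.10, HISAT2 2.2.0 and bcl2fastq, and the build was hg38. Per the file headers, exons were counted by gene from read pairs with reverse strandedness, and multiply mapped reads were not counted.

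Tests were run with edgeR 4.0.16 in R 4.3.3 (filterByExpr by group, TMM, glmQLFit and glmQLFTest) in 1 fit of all 14 libraries with 7 residual degrees of freedom and 13 contrasts, after the scripts were tested on simulated data. CPM use library totals times TMM factors, and TPM use the deposited exonic lengths. Group neighbours were said not to differ beyond their spread where libraries overlapped or means differed by no more than the summed SDs. A prior count of 2 was added for correlations on log2 CPM. Up to 4 genes with the smallest p per list were named, and the 3 most alike genes for 4 members. The members and lists were chosen with earlier results of these data known. The spread within each pair of libraries exceeded sampling noise (chi-square of 5.53 to 15.03 for each degree of freedom), and each counted as a library of its own. Floors of 3 counts cover counting error only. Alternatives tried were another test (DESeq2 1.42.0), other scalings (RLE or unscaled totals), all genes with any count, fits of the compared groups only, the replicate number as a block, a minimum log2 change of 1, and each library left out in turn.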

Additional observations from a re-analysis of the deposited data

Results flagged for a closer look

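The effect of SB4 differed between the CHIR99021 doses by the test of the difference itself, in edgeR's fit of all 14 libraries. The log2 difference, high Wnt minus low Wnt, was called for ACTC1 (-4.90), JPH2 (-4.37), TAGLN (-3.78), ACTG2 (-2.48), ACTA2 (-2.36), CNN1 (-2.32), MYL9 (-2.22), CALD1 (-1.10) and TPM1 (-0.78). ACTC1 had 11.4 and 10.1 CPM in high Wnt + SB4 and 201 and 141 CPM in high Wnt, and the opposite order at the lower dose, with 31.9 and 38.6 CPM in low Wnt + SB4 and 15.04 and 22.6 CPM in low Wnt. TPM1 was lower with SB4 at both doses, so its difference is one of size. At the lower dose both calls were lost without low Wnt replicate 1 (ACTC1 0.64 and TPM1 -0.43).

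The effect of TGFB differed between the doses by the same test for JPH2 (1.95), ACTA2 (1.21), TPM2 (0.64), TPM1 (0.59), CNN1 (-0.83) and CALD1 (-0.73). ACTA2 had 313 and 304 CPM in high Wnt + TGFB and 228 and 189.6 CPM in high Wnt, against 21.0 and 17.1 CPM in low Wnt + TGFB and 31.5 and 28.1 CPM in low Wnt. With groups of 2 libraries no single library could be examined as an outlier.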

How the results depend on the processing

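No direction was reversed under the alternatives run where a gene was called in the fit reported or in the alternative. The direction of genes called in neither was not compared. The count in high Wnt + TGFB against high Wnt depended on the tool and scaling, with 1 gene called in the fit reported, 3 with DESeq2, 2 with library totals alone, 5 without the filter on low counts, 4 with only the groups compared and 3 with the replicate number as a block. Asking for a log2 fold change of at least 1 left 4 genes of 8 in high Wnt against hESC, 0 of 5 in low Wnt + SB4 against low Wnt, 2 of 9 in low Wnt + TGFB against low Wnt and 0 of 1 in high Wnt + TGFB against high Wnt. It left 2 of 4 in low Wnt + TGFB against low Wnt + SB4, 5 of 8 in high Wnt + TGFB against low Wnt + TGFB and 2 of 6 in the TGFB difference between doses. Leaving out 1 library at a time gave 0 to 4 calls in low Wnt + SB4 against low Wnt, 4 to 8 in low Wnt + TGFB against low Wnt and 0 to 1 in high Wnt + TGFB against high Wnt. In the other 10 of the 13 comparisons these fits stayed within 1.5 times the count reported. Where a group is left with 1 library, that library is assumed to vary like the other groups.

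Deviations of same-numbered libraries correlated between -0.12 and 0.21 over 21 pairs of groups, with a median of 0.057 and 5 over 0.1. With 2 libraries per group this cannot show whether same-numbered libraries were paired. With the replicate block no other count moved by over 1.5 times. TAGLN in low Wnt + TGFB against low Wnt, not called in the fit reported, passed with DESeq2, with either other scaling, without the filter, with the compared groups alone and with the block (0.46 to 0.55). ACTG2 lost its call there with DESeq2 (1.07) or only the groups compared (1.05), and also with DESeq2 in high Wnt + TGFB against low Wnt + TGFB. The cause of these changes was not tested. Counts were lowest for ACTG2, with 5 and 6 in high Wnt + SB4, and JPH2, with 9 and 18, which limits the precision of their values there.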
